A study of Homo sapiens with 6 samples.

Results

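The genes described here encode proteins that the table's own annotation places in the nucleus and not at the cell surface or outside the cell. A gene was taken when its row was marked protein-coding, its Gene Ontology text named the nucleus or nucleoplasm, and the text named neither the plasma membrane nor the extracellular region or space. Of 402 genes in the table, 283 were protein-coding, 66 of these had a nuclear term, 15 of the 66 also had a surface or extracellular term, and 2 (MKNK2 and IFI27) were left out by name, which gave 49 genes. For 50 protein-coding genes the annotation text was not used here, so their class is not known, and these include the transcription factor genes ZEB1, GATA3, TCF3 and NFATC2.

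The samples were 3 libraries labelled shYTHDC2 and 3 labelled NC. All 6 came from CAL-27, an established line of oral squamous cell carcinoma. The shYTHDC2 cells are labelled as a knockdown of YTHDC2, an RNA helicase with a YTH domain that reads N6-methyladenosine on RNA, and NC is the group they were set against. The number of hairpin sequences, the promoter driving them, how NC cells were made and whether replicates came from separate cultures are not stated in the labels, and p-values therefore measure only the spread between these libraries. Of marker lists for other cell types (fibroblast, leukocyte, endothelial, neural or embryonic kidney), only the endothelial one had genes among the 402, 2 of 7 (CDH5 and ESAM), and the 13 squamous keratinocyte markers had 0, which in a table of higher genes says nothing of their level.

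The authors' deposited table marks 402 of 402 rows as up and significant (100% by their call), with a smallest fold of 2.00. The direction of each gene was thus fixed before any test made here. Genes that were lower, and YTHDC2 itself, were not analysed here, which leaves the knockdown itself unchecked. Levels are given as FPKM, fragments scaled by transcript length and library size, and the depth of the libraries is unknown. In bulk RNA, fewer cells with a transcript and less of it per cell cannot be told apart.

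Sequence-specific transcription factors bind short DNA words and recruit activators or repressors. The largest human family of them, the C2H2 zinc finger proteins, reads DNA with repeated finger units. Many carry a KRAB domain, which recruits the corepressor TRIM28, and silence transposable elements. Their genes arose by tandem duplication and lie in clusters, above all on chromosome 19. Other nuclear proteins repair DNA, cap telomeres or shuttle between nucleus and cytoplasm.

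Among the 49 genes, 26 had a transcription factor family in the authors' annotation, and 16 of these were of the C2H2 family. A group of 6 zinc finger genes lay within 1.49 Mb of chromosome 19, from ZNF350 to ZNF761. Promoter windows of 5 of them are shown, because 4 are close copies of one another and their genes were listed together. The windows hold 250 bases before and 50 after the annotated start, 5′ to 3′ on the gene's strand, from RefSeq on GRCh38.p14. Capitals mark matches, on either strand, to the GC box GGGCGG, to CCAAT or to the AP-1-like word TGANTCA (N is any base). There are 0 overlaps between words. The first 4 are the close copies and ZNF616, a neighbour with a different start region, is shown for contrast.
ZNF468: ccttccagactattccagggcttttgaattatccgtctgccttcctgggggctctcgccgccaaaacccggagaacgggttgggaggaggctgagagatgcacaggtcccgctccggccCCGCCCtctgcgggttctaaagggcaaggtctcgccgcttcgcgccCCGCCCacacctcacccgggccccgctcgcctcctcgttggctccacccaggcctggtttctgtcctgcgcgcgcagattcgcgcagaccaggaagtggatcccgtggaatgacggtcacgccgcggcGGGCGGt
ZNF845: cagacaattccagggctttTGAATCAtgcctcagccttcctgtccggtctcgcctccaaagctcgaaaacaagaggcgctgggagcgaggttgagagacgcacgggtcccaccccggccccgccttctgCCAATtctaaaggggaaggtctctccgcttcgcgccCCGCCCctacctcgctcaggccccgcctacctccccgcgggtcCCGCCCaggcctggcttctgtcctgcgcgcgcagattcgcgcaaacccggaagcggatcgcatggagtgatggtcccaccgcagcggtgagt
ZNF765: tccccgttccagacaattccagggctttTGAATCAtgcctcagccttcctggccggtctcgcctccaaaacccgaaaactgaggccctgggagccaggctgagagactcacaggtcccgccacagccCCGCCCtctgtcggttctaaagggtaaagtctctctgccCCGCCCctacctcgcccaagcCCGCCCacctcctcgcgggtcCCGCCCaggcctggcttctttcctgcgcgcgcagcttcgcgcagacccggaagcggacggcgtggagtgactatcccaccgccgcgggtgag
ZNF761: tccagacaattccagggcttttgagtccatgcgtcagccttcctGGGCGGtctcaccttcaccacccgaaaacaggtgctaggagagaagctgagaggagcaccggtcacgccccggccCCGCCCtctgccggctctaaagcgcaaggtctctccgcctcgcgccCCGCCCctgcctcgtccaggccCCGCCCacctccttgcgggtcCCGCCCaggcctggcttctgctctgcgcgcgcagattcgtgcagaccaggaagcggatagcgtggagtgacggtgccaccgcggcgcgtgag
ZNF616: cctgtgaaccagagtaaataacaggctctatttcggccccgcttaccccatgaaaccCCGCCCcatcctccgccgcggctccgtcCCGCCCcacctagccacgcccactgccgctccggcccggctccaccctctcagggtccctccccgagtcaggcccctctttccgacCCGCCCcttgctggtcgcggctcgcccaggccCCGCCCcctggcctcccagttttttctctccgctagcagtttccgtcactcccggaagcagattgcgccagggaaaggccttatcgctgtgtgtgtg
They lie at chr19:52857570-52857869 (minus strand), chr19:53333499-53333798, chr19:53394899-53395198 and chr19:53431734-53432033 (plus strand), and chr19:52139889-52140188 (minus strand).

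Between the promoter windows of ZNF468, ZNF845, ZNF765 and ZNF761 the 6 pairwise alignments had 77.7% to 83.2% identical bases. The 9 pairs that involve ZNF616 or ZNF350 had 48.3% to 56.5%. The word TGANTCA stood in ZNF845 and ZNF765, as TGAATCA, and in none of the other printed windows. It is looser than the AP-1 consensus, which has C or G in the middle, so TGAATCA is not that consensus. Binding was not tested. GGGCGG occurred in all 5 printed windows, 2 times in ZNF845, 3 in ZNF468, 4 each in ZNF765 and ZNF616 and 5 in ZNF761. This likeness is not particular to listed genes. Of 28 zinc finger genes of the interval with a promoter entry, 22 were not among the 402 genes, and 5 of those 22 (ZNF701, ZNF611, ZNF83, ZNF808 and ZNF525) were at least 77.7% identical to one of the 4. ZNF701 was 86.0% identical to ZNF845.

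**Figure D1:**
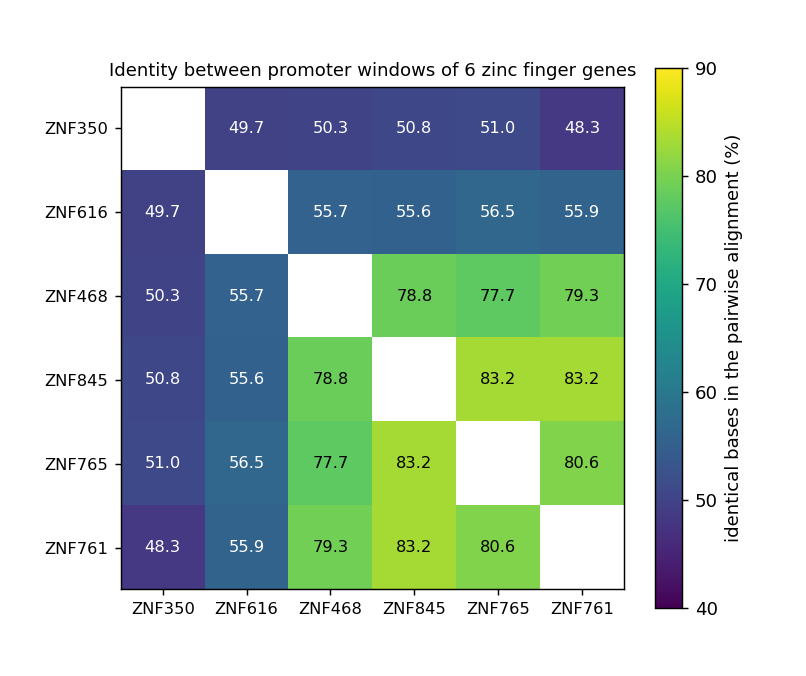
Percentage of identical bases in pairwise alignments of the promoter windows of 6 zinc finger genes on chromosome 19, in chromosomal order on both axes. ZNF468, ZNF845, ZNF765 and ZNF761 form a block at 77.7% to 83.2%, and ZNF350 and ZNF616 stand apart from it at 48.3% to 56.5%.

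Promoter entries were found for 38 of the 49 genes. Words were searched on both strands. GGGCGG was present in 63.2% of them, in 66.3% of 175 other protein-coding genes of the table and in 45.0% of 35116 promoters in all. CCAAT was present in 39.5%, 25.1% and 34.6% of the same sets, CACGTG (an E-box) in 18.4%, 9.14% and 7.26%, TGANTCA in 7.89%, 6.29% and 7.71%, and TATAAA in 5.26%, 14.9% and 11.5%. For the C2H2 genes the more fitting set is the 430 ZNF promoters: GGGCGG stood in 11 of 15 C2H2 windows (73.3%) and in 63.5% of ZNF promoters, and CCAAT in 46.7% and 48.6%. These are counts of words and carry no test.

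Over all 49 genes, levels were low to moderate. The mean in shYTHDC2 ran from 0.0598 FPKM (ZNF350) to 28.2 FPKM (ZNF664), with a median of 1.39 FPKM, against a median of 0.574 FPKM in NC. The other 234 protein-coding genes of the table had medians of 1.53 and 0.505 FPKM. Means of at least 10 FPKM in shYTHDC2 were reached by 5 of the 49 (ZNF664, OGFR, C15orf48, KLF6 and STX12) and by 38 of the 234. The median fold was 2.49 over the 46 nuclear genes that had signal in NC, with 33 under 3-fold, and likewise 2.49 over 211 other protein-coding genes. At the lower end, FOXP4 (2.00-fold), NAV3 and CERS4 (both 2.02-fold) lay just inside the authors' limit.

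In 48 of the 49 genes the lowest shYTHDC2 library was above the highest NC library. In the whole table this held for 364 of 402 genes (90.5%) and among the other protein-coding genes for 224 of 234 (95.7%), so the share among nuclear genes is near that of a table chosen for higher genes. The exception was BCL6B, listed at 0 in every NC library and in shYTHDC2 replicate 2. Within shYTHDC2 the 3 libraries were similar as a whole, with median levels over the 49 genes of 1.34, 1.33 and 1.38 FPKM, and the NC libraries had medians of 0.501, 0.451 and 0.476 FPKM. No library was the highest of its group for more than 19 of the 49 genes.

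**Figure D2:**
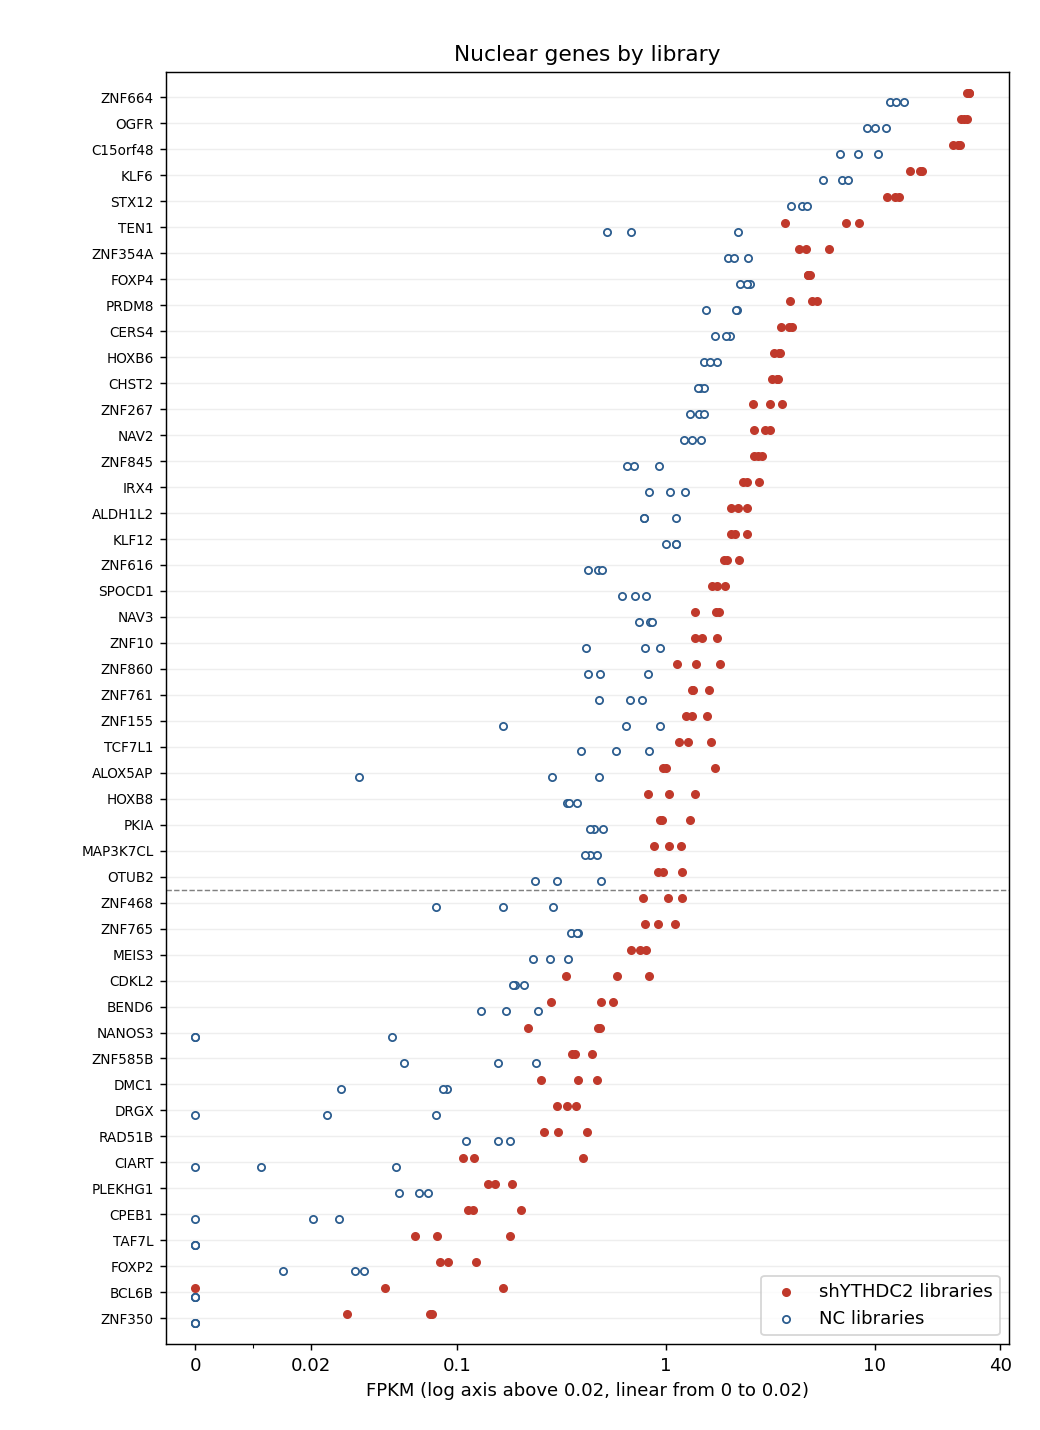
FPKM of 48 of the 49 nuclear genes in each library, ordered by mean level in shYTHDC2, with filled points for the 3 shYTHDC2 and open points for the 3 NC libraries; the axis is logarithmic above 0.02 FPKM and linear below. Genes under the dashed line had a mean below 1 FPKM in both groups and were not tested. The sets of points are apart for all genes plotted but BCL6B, where the share over all 402 listed genes is 90.5%.

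A linear model across all genes (limma, on log2(FPKM + 1), a scale that understates the change of low genes) tested the 187 genes whose mean reached 1 FPKM in shYTHDC2, in NC or in both. It called 185 higher at an adjusted p of 0.05, a background of 98.9%, and 31 of the 49 nuclear genes were tested. All 31 were called higher and 0 lower (0 also at an unadjusted p under 0.05, and 0 lower in limma without the filter). Since 15 of the 31 passed the filter only through their shYTHDC2 mean, and since the table held only higher genes, this count is a description. Their log2 changes ran from 0.50 to 1.83 with a median of 0.76, against 0.88 over all 187. Without the filter 48 of the 49 were called, where the background is 85.1%.

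A scaling that sets the typical listed gene equal between groups (trimmed mean of log ratios) moved the median log2 change of the 187 genes to -0.0151. It centres a table made of higher genes, so genes fall on both sides of 0 by construction, and a value below 0 is a smaller difference than is typical of the table and not a lower level. Under it 86 of the 187 genes were above 0 and 101 below, as were 14 and 17 of the 31 nuclear genes, and 2 were still called higher, where the background is 14.4%. These were ZNF616 (log2 change 0.42, limma adjusted p = 0.0259) and ZNF845 (0.34, limma adjusted p = 0.0395), both from the chromosome 19 interval.

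**Figure D3:**
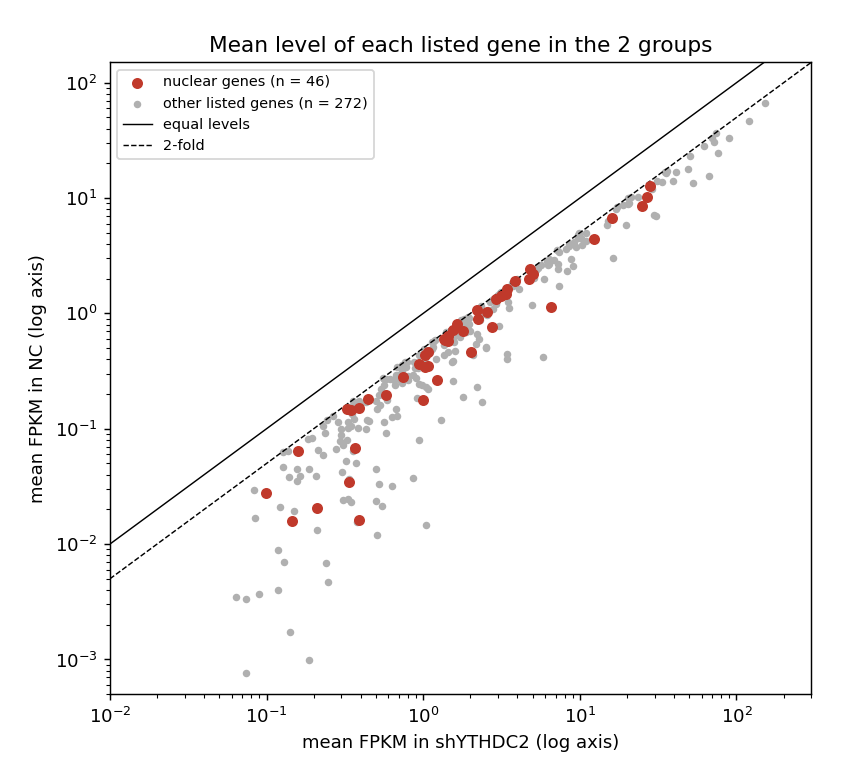
Mean FPKM in shYTHDC2 (horizontal, log axis) against mean FPKM in NC (vertical, log axis) for the 46 nuclear genes (red) and the other listed genes (grey) with signal in NC. All points lie at or beyond the dashed 2-fold line, and the red points run along the same band as the grey ones.

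The C2H2 genes were 16, and 12 were tested. All 12 were called higher in limma, where the background is 98.9% (185 of 187 genes). Under the scaling to the typical listed gene 4 were above 0 and 8 below, against 86 and 101 of all 187. By place, 8 of the 16 lay on chromosome 19 (50.0%), where 7.4% of all protein-coding genes in GENCODE release 29 lie. Leaving out KLF6, KLF12 and PRDM8, which have other symbols, it was 8 of 13 (61.5%), against 267 of 609 annotated genes with zinc finger symbols (43.8%). These shares carry no test. The other 33 nuclear genes had 3 on that chromosome (9.1%). The 8 on chromosome 19 had a median of 1.19 FPKM in shYTHDC2 and 0.415 FPKM in NC. The 8 elsewhere had medians of 3.94 and 1.70 FPKM.

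Highest of the family, and of all 49, was ZNF664, a zinc finger gene on chromosome 12 (from 123971845 to 124015439 in GRCh38), which stood at 27.8, 28.4 and 28.3 FPKM in shYTHDC2, against 11.8, 12.7 and 13.8 FPKM in NC. The shYTHDC2 libraries are close together, and the lowest of them is about 2 times the highest NC library. The difference was 2.20-fold, with a log2 change of 1.08 (SE 0.06) and a limma adjusted p of 2.38e-07. ZNF664 overlaps the coding genes RFLNA and AC068790.8 on its strand, so the share of fragments that is its own is uncertain.

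KLF6, a Krüppel-like factor induced by injury and studied as a tumour suppressor, stood at 14.7, 16.8 and 16.6 FPKM in shYTHDC2, against 5.66, 6.98 and 7.43 FPKM in NC. Its log2 change was 1.15 (SE 0.10), a 2.40-fold difference (limma adjusted p = 2.70e-06). KLF12, a related factor known as a repressor of the AP-2 alpha gene, stood lower, at 2.05, 2.14 and 2.45 FPKM in shYTHDC2 and 1.12, 1.00 and 1.12 FPKM in NC, and differed by 2.05-fold. PRDM8, a PR domain protein that represses transcription in developing neurons, stood at 5.00, 5.27 and 3.96 FPKM in shYTHDC2, against 2.20, 1.55 and 2.17 FPKM in NC. In each of the 3 the groups are apart, as they are in 90.5% of all 402 genes. PRDM8 had the widest shYTHDC2 spread of the 3 relative to its mean.

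ZNF354A on chromosome 5 stood at 4.68, 4.33 and 6.07 FPKM in shYTHDC2, against 1.99, 2.13 and 2.49 FPKM in NC, with shYTHDC2 replicate 3 highest. ZNF267 on chromosome 16 stood at 3.16, 3.62 and 2.63 FPKM in shYTHDC2, against 1.31, 1.44 and 1.52 FPKM in NC. These genes changed by 0.91 (SE 0.12) and 0.76 (SE 0.10) on the log2 scale. In ZNF10, whose KRAB domain is used in synthetic repressors, and in ZNF860 the nearest libraries of the groups were closer. By fold ZNF860 did not differ less, at 2.52, with 2.16 in ZNF10, 2.28 in ZNF354A and 2.20 in ZNF267. ZNF10 had 1.49, 1.76 and 1.38 FPKM in shYTHDC2 and 0.416, 0.937 and 0.791 FPKM in NC, and ZNF860 had 1.13, 1.82 and 1.39 FPKM in shYTHDC2 and 0.819, 0.422 and 0.483 FPKM in NC. Their lowest shYTHDC2 library was 0.30 and 0.23 above the highest NC library on the log2(FPKM + 1) scale.

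The chromosome 19 interval from ZNF350 to ZNF761 (51964343 to 53458261 in GRCh38) holds 34 annotated zinc finger genes, of which 6 were among the 402 genes. Its ends were set at ZNF350 and ZNF761, which are themselves listed, so this share is raised by the choice of ends. On all of chromosome 19 it was 8 of 267 annotated zinc finger genes, and on all chromosomes 13 of 609. None of these shares was tested. ZNF845 (from 53333746 to 53356906), ZNF765 (from 53389793 to 53430413) and ZNF761 (from 53431993 to 53458261) follow one another on the plus strand, with gaps of 32.9 kb and 1.58 kb. ZNF845 stood at 2.66, 2.75 and 2.88 FPKM in shYTHDC2, against 0.927, 0.701 and 0.654 FPKM in NC, a 3.63-fold difference with a log2 change of 1.10 (SE 0.09, limma adjusted p = 1.76e-06). ZNF761 stood at 1.35, 1.33 and 1.61 FPKM in shYTHDC2, against 0.670, 0.480 and 0.769 FPKM in NC, a 2.24-fold difference. ZNF765, just under the filter and not tested, stood at 0.922, 0.797 and 1.11 FPKM in shYTHDC2, against 0.350, 0.378 and 0.374 FPKM in NC. The NC libraries of ZNF765 were close together, and all 3 shYTHDC2 libraries were at least 2 times as high as any of them.

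ZNF616 and ZNF468 had the largest folds of the zinc finger genes with signal in NC. ZNF616 (from 52113091 to 52139922) stood at 1.90, 1.95 and 2.25 FPKM in shYTHDC2, against 0.474, 0.492 and 0.421 FPKM in NC, a 4.40-fold difference with a log2 change of 1.05 (SE 0.09, limma adjusted p = 4.08e-06). The means were 2.03 ± 0.185 FPKM in shYTHDC2 and 0.463 ± 0.0368 FPKM in NC (SD, n = 3 each). ZNF468 (from 52838008 to 52890375), not tested, stood at 1.02, 1.19 and 0.774 FPKM in shYTHDC2, against 0.287, 0.166 and 0.0790 FPKM in NC, which is 5.63-fold. Its NC libraries differ among themselves by over 3 times. ZNF350, which binds BRCA1 and represses stress-response genes, stood at 0.0740, 0.0757 and 0.0296 FPKM in shYTHDC2 and was listed at 0 in every NC library, the lowest shYTHDC2 mean of the 49 genes.

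Zinc finger genes of 1 cluster can share near-identical stretches, also with neighbours that are not among the 402 genes. ZNF468 overlaps ZNF28 and ZNF320 on its strand and ZNF765 overlaps ZNF525, so the split of fragments among them is uncertain. These overlaps are between genes as GENCODE annotates them. The RefSeq promoter windows printed for ZNF468 and ZNF765 lie inside the GENCODE genes and not at their starts. The remaining pair on chromosome 19 lay outside the interval. ZNF155 had 1.34, 1.58 and 1.25 FPKM in shYTHDC2 and 0.942, 0.647 and 0.165 FPKM in NC, with NC replicate 3 far below the other NC libraries. ZNF585B had 0.443, 0.366 and 0.353 FPKM in shYTHDC2 and 0.0555, 0.157 and 0.240 FPKM in NC and was not tested.

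**Figure D4:**
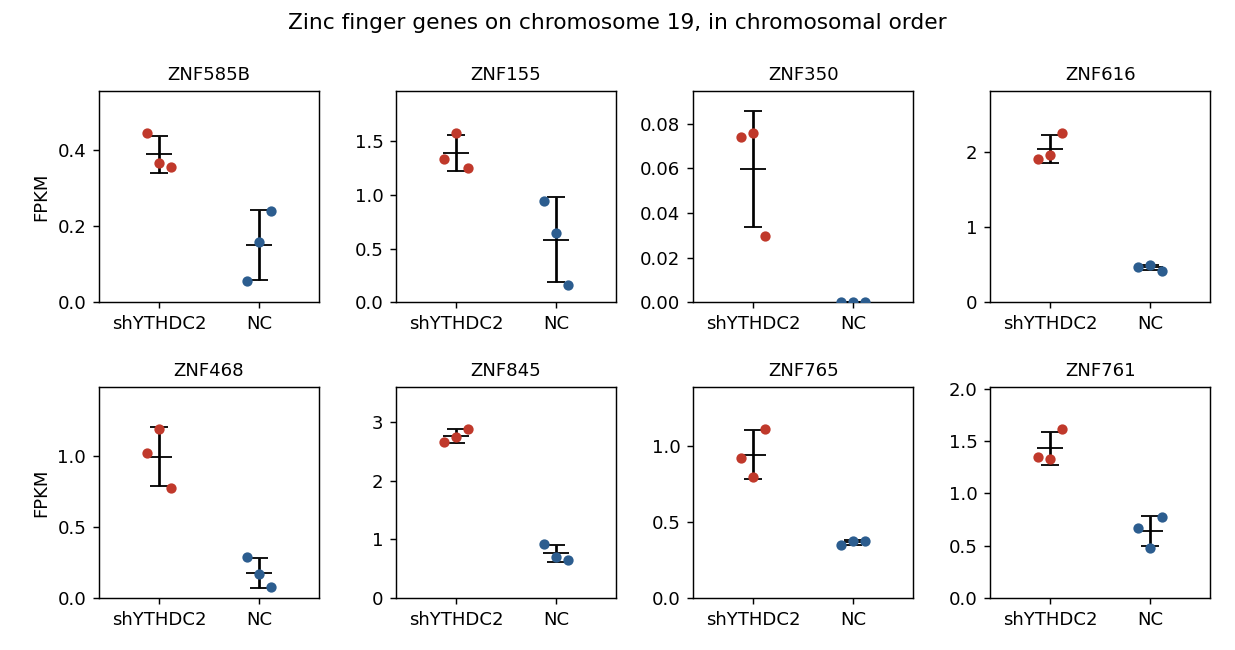
FPKM of the 8 C2H2 genes on chromosome 19 in the 3 shYTHDC2 (left, red) and 3 NC (right, blue) libraries, with the mean and SD as black bars; each panel has its own axis from 0. The groups are apart in all 8 panels, as they are in 364 of all 402 listed genes (90.5%). ZNF616 and ZNF845 are the most widely apart, and ZNF350 is at 0 in NC.

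Homeobox genes, which encode factors that set position along the body axis and cell identity, numbered 5. All 3 tested ones were called higher in limma, where the background is 98.9%. Under the scaling to the typical listed gene 1 of them (HOXB6) was below 0, as were 101 of all 187 tested genes. HOXB6 stood at 3.51, 3.49 and 3.28 FPKM in shYTHDC2, against 1.52, 1.76 and 1.63 FPKM in NC, with a log2 change of 0.75 (SE 0.08) and a limma adjusted p of 1.00e-05. HOXB8 stood at 1.03, 0.818 and 1.38 FPKM in shYTHDC2, against 0.375, 0.337 and 0.344 FPKM in NC, a 3.06-fold difference against 2.10-fold in HOXB6. The genes lie 6385 bases apart on chromosome 17 (HOXB6 from 48595751 to 48604992), and were 2 of the 10 HOXB genes annotated there. HOXB7, between them in the cluster, was not analysed here and overlaps HOXB8 on the same strand, as HOXB3 overlaps HOXB6, so these values are uncertain.

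IRX4, an Iroquois factor known from the heart ventricle, stood at 2.46, 2.81 and 2.35 FPKM in shYTHDC2, against 1.05, 1.24 and 0.827 FPKM in NC. Its log2 change was 0.80 (SE 0.10). MEIS3, of the TALE class that partners HOX proteins, had 0.680, 0.752 and 0.799 FPKM in shYTHDC2 and 0.277, 0.231 and 0.339 FPKM in NC and was not tested. DRGX, a factor of sensory neurons, had 0.302, 0.369 and 0.334 FPKM in shYTHDC2 and 0.0238, 0.0792 and 0 FPKM in NC. Its fold of 9.76 rests on single NC libraries, and was 28.1 without NC replicate 2 and 6.50 without NC replicate 3.

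Of the forkhead repressors FOXP4 and FOXP2, FOXP4 stood at 4.89, 4.80 and 4.80 FPKM in shYTHDC2, against 2.53, 2.44 and 2.27 FPKM in NC. FOXP4 had the tightest shYTHDC2 group, relative to its mean, and the smallest fold of all 49, 2.00, with a log2 change of 0.77 (SE 0.07, limma adjusted p = 6.42e-06). FOXP2 had 0.124, 0.0823 and 0.0907 FPKM in shYTHDC2 and 0.0152, 0.0357 and 0.0324 FPKM in NC, far under the filter. TCF7L1, an HMG box factor that represses Wnt target genes without beta-catenin, stood at 1.65, 1.15 and 1.27 FPKM in shYTHDC2, against 0.579, 0.394 and 0.834 FPKM in NC, with a log2 change of 0.56 (SE 0.13, limma adjusted p = 0.00256). FOXP4 and TCF7L1 were both below 0 under the scaling to the typical listed gene. BCL6B, a relative of the repressor BCL6, was listed at 0.166, 0 and 0.0452 FPKM in shYTHDC2 and at 0 in NC. CPEB1, which the annotation puts under other factors and which binds a polyadenylation element in mRNA, had 0.113, 0.119 and 0.202 FPKM in shYTHDC2 and 0.0271, 0 and 0.0205 FPKM in NC. Its 9.11-fold difference was 14.1 without NC replicate 1 and 6.07 without NC replicate 2.

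Genes for genome maintenance were led by TEN1, a subunit of the CST complex that guards telomere ends. It stood at 3.72, 7.32 and 8.47 FPKM in shYTHDC2, against 0.524, 2.21 and 0.680 FPKM in NC. The groups do not overlap, but both are wide, with shYTHDC2 replicate 1 less than 2 times NC replicate 2. TEN1 had the largest log2 change of the 31 tested genes, 1.83 (SE 0.40), with the widest error (limma adjusted p = 0.00503). The 5.71-fold difference was 10.8 without NC replicate 2 and 4.49 without NC replicate 1, and TEN1 overlaps the readthrough gene TEN1-CDK3. Under the scaling to the typical listed gene its log2 change was 0.96, still the largest of the 31, and did not pass the test (limma adjusted p = 0.147).

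OTUB2, a deubiquitinase that also acts at DNA breaks, stood at 0.972, 0.918 and 1.19 FPKM in shYTHDC2, against 0.487, 0.300 and 0.237 FPKM in NC and changed by 0.60 (SE 0.12) on the log2 scale (limma adjusted p = 8.22e-04). The recombinases were expressed at low levels. DMC1, which pairs strands in meiosis, had 0.252, 0.378 and 0.470 FPKM in shYTHDC2 and 0.0278, 0.0897 and 0.0854 FPKM in NC, and RAD51B, which acts in homologous recombination, had 0.419, 0.304 and 0.260 FPKM in shYTHDC2 and 0.156, 0.178 and 0.110 FPKM in NC. Neither was tested, and in both the libraries of the groups are apart, as they are in 90.5% of all 402 genes. On the list of 80 repair, recombination and telomere genes 3 were among the 402 genes (DMC1, RAD51B and TEN1). Of the 3, 1 was tested and called, where the background is 98.9% of tested genes.

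Genes known from the germline appeared with low levels. SPOCD1, which links piRNAs to DNA methylation in mouse male germ cells, was the 1 of 5 with a germline term in its annotation to reach the filter. It stood at 1.67, 1.93 and 1.76 FPKM in shYTHDC2, against 0.617, 0.803 and 0.708 FPKM in NC, with a log2 change of 0.70 (SE 0.09). NANOS3, which keeps primordial germ cells alive, had 0.472, 0.482 and 0.219 FPKM in shYTHDC2 and 0, 0 and 0.0485 FPKM in NC. Without NC replicate 3 its NC value is 0, so the fold is not given. TAF7L, a germ cell relative of the general transcription factor TAF7, was listed at 0.0631, 0.0799 and 0.179 FPKM in shYTHDC2 and at 0 in NC. DMC1 and RAD51B complete the 5. CIART, a repressor in the circadian clock, had 0.121, 0.400 and 0.107 FPKM in shYTHDC2 and 0.0112, 0.0507 and 0 FPKM in NC. The fold of CIART was 10.1 with all libraries, 5.51 without shYTHDC2 replicate 2 and 37.2 without NC replicate 2. BEND6, a BEN domain protein, had 0.558, 0.490 and 0.283 FPKM in shYTHDC2 and 0.171, 0.130 and 0.243 FPKM in NC, with 1 shYTHDC2 library close to the highest NC library.

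Signalling proteins were led by OGFR, the receptor of the opioid growth factor met-enkephalin, which sits at the nuclear envelope and slows growth. OGFR stood at 27.6, 26.8 and 26.1 FPKM in shYTHDC2, against 9.18, 11.3 and 10.04 FPKM in NC. The gap between its groups, 1.14 on the log2(FPKM + 1) scale, was the widest of the 49 on that scale, which understates the gaps of low genes. The means were 26.9 ± 0.769 FPKM in shYTHDC2 and 10.2 ± 1.09 FPKM in NC (SD, n = 3 each). Its log2 change was 1.32 (SE 0.08), a 2.64-fold difference (limma adjusted p = 2.01e-07), and it lies on chromosome 20 from 62804835 to 62814000, against the antisense gene OGFR-AS1. Whether counting used the strand is not given, so fragments of OGFR and OGFR-AS1 may be mixed. PKIA, an inhibitor of protein kinase A that carries the kinase out of the nucleus, had 1.31, 0.937 and 0.960 FPKM in shYTHDC2 and 0.501, 0.451 and 0.435 FPKM in NC. MAP3K7CL, which resembles the C-terminal part of the kinase TAK1, had 1.19, 1.03 and 0.882 FPKM in shYTHDC2 and 0.433, 0.411 and 0.470 FPKM in NC. PKIA and MAP3K7CL were called with the smallest log2 changes of the 31 on the log2(FPKM + 1) scale, both 0.50. Both were below 0 under the scaling to the typical listed gene. Their folds, 2.31 and 2.36, were not the smallest, and lay above those of FOXP4 (2.00), NAV3 and CERS4 (both 2.02) and KLF12 (2.05).

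Not tested were CDKL2, a cyclin-dependent kinase-like kinase, at 0.584, 0.829 and 0.334 FPKM in shYTHDC2 and 0.210, 0.190 and 0.185 FPKM in NC, and PLEKHG1, a protein with a pleckstrin homology domain, at 0.151, 0.140 and 0.183 FPKM in shYTHDC2 and 0.0725, 0.0659 and 0.0526 FPKM in NC. In both the lowest shYTHDC2 library was above the highest NC library, as in 90.5% of all 402 genes. NAV2 and NAV3, which bind microtubule ends and guide neurite growth, were both called higher in limma, where the background is 98.9%. Both were below 0 under the scaling to the typical listed gene, as were 101 of all 187 tested genes. NAV2 stood at 2.64, 2.98 and 3.15 FPKM in shYTHDC2, against 1.22, 1.47 and 1.33 FPKM in NC, and NAV3 stood at 1.75, 1.79 and 1.39 FPKM in shYTHDC2, against 0.746, 0.835 and 0.855 FPKM in NC. Their log2 changes were 0.75 (SE 0.08) and 0.54 (SE 0.10).

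The last 6 genes encode proteins best known outside the nucleus, although their annotation holds a nuclear term. All 6 were tested and called higher in limma, where the background is 98.9%. Under the scaling to the typical listed gene 2 of them (CERS4 and CHST2) were below 0, as were 101 of all 187 tested genes. C15orf48, a mitochondrial protein related to a subunit of respiratory complex IV, stood at 25.1, 23.8 and 25.6 FPKM in shYTHDC2, against 10.4, 6.83 and 8.34 FPKM in NC. Its log2 change, 1.45 (SE 0.12), was second to that of TEN1 on the log2(FPKM + 1) scale (limma adjusted p = 3.63e-06). By fold it was not second, at 2.91 against 4.64 for ALOX5AP, 4.40 for ZNF616 and 3.63 for ZNF845, which are lower genes. STX12, a SNARE protein of endosomes, stood at 12.6, 13.1 and 11.4 FPKM in shYTHDC2, against 4.51, 3.99 and 4.77 FPKM in NC, with a log2 change of 1.30 (SE 0.08, limma adjusted p = 3.84e-07). C15orf48, STX12 and OGFR were the 3 genes with the widest gap between groups.

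CERS4, a ceramide synthase of the endoplasmic reticulum, stood at 4.04, 3.56 and 3.91 FPKM in shYTHDC2, against 1.72, 2.02 and 1.95 FPKM in NC. CHST2, a sulfotransferase of the Golgi, stood at 3.46, 3.22 and 3.40 FPKM in shYTHDC2, against 1.46, 1.52 and 1.42 FPKM in NC. ALDH1L2, a mitochondrial enzyme of folate metabolism, stood at 2.06, 2.23 and 2.44 FPKM in shYTHDC2, against 1.12, 0.789 and 0.787 FPKM in NC. The log2 changes of these 3 were close together, at 0.74 (SE 0.08), 0.82 (SE 0.07) and 0.77 (SE 0.10). ALOX5AP, which presents arachidonic acid to 5-lipoxygenase in the making of leukotrienes, stood at 1.00, 0.973 and 1.72 FPKM in shYTHDC2, against 0.286, 0.0339 and 0.476 FPKM in NC. NC replicate 2 was far below the others, and the 4.64-fold difference was 3.23 without NC replicate 2 and 7.70 without NC replicate 3.

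Most lists of nuclear machinery had no gene among the 402. Of 15 lists, 11 had 0, with 396 symbols in all. These were immediate early and AP-1 genes (20), nuclear NF-kB (10), chromatin modifiers (101), histones (20), cell cycle and replication (49), splicing and RNA processing (70), m6A machinery (13), nucleolus and ribosome biogenesis (29), nuclear envelope and pore (37), p53 targets (17), and ubiquitin and SUMO enzymes (30). The list of 109 transcription factors had 5 (KLF6 among the nuclear genes), SMAD, YAP, Notch and Wnt effectors 1 of 25 (TCF7L1), and the circadian clock 1 of 17 (CIART). The levels of genes outside the 402 were not analysed here, so a count of 0 gives no direction for a list.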

How the data were processed

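RNA from 3 shYTHDC2 and 3 NC samples of CAL-27 cells was poly(A)-selected and made into dUTP-marked paired-end libraries, per the labels' protocols. The submitters' processing notes give GRCh38 as the build and edgeR, StringTie, HISAT2 and fastp as tools, without versions or roles, and the strand setting of counting is not given in the sources used here. FPKM values were deposited by the authors, per the file headers, with their fold (a ratio of mean FPKM), its log2, and p-value and q-value columns whose test is not named. The depth is unknown, so no counting interval was computed. For this report log2(FPKM + 1) was fitted with limma 3.58.1 in R 4.3.3, group as the only term, trend and robust variance, over genes whose mean reached 1 FPKM in a group, with Benjamini-Hochberg adjustment at 0.05 over all tested genes, after a check on simulated data. With 3 libraries a group, an exact permutation test (two-sided) has a smallest p of 0.1. Folds are ratios of mean FPKM. Positions come from GENCODE release 29, which covered all 49 genes; 10 overlap a coding gene on their strand and 30 any gene on the other strand. Promoters come from RefSeq and were aligned globally in pairs with Biopython; identity is over all aligned columns, gaps included. The values of 1 of the 49 genes are not reported here. The members and gene lists were chosen with earlier results of these data known. The rule for named genes took the 10 largest changes, the 10 highest levels, up to 3 genes of each role or list, the 5 highest under the filter, and the 3 smallest and 3 largest gaps between groups, 35 genes in all; the other 14 are named so that every gene is accounted for, after their values were seen.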

Additional observations from a re-analysis of the deposited data

How the results depend on the processing

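The 31 nuclear genes called higher, and the 185 of all listed genes, became 2 and 27 under the scaling to the typical listed gene, 48 and 342 without a filter, 7 and 74 under a 5 FPKM filter, and 8 and 67 with a 2-fold minimum on the log2(FPKM + 1) scale; more or fewer genes were tested under the filters, and the scaling takes the typical listed gene as equal between groups. No nuclear gene was called lower under any of these, and 7 of all listed genes were called lower under that scaling. The counts were 31 and 185 with a pseudocount of 0.1 and without trend and robust variance, 24 and 156 with a mean of 1 FPKM over all libraries, 31 and 184 at an adjusted p of 0.01, and 22 nuclear genes among the 35 without a cytosol or cytoplasm term. Leaving out each library gave 29 to 32 and 183 to 187, and every nuclear gene still above the filter kept its call. The genes were chosen as higher in these same 6 libraries, so a kept call is a description and not an independent check. In a fit with replicate block, 31 and 183 passed; deviations from the group mean correlated by 0.0589, 0.151 and 0.0734 between libraries of the same number, each above its correlation with the other numbers, but the numbers were not taken as pairs. Under the scaling the log2 change turned to -0.14 for ZNF664, -0.0188 for KLF6, -0.0813 for ZNF354A, -0.22 for FOXP4, -0.0151 for PRDM8, -0.20 for CERS4, -0.16 for HOXB6, -0.0657 for CHST2, -0.11 for ZNF267, -0.11 for NAV2, -0.16 for KLF12, -0.15 for NAV3, -0.0748 for ZNF10, -0.0564 for ZNF761, -0.0449 for TCF7L1, -0.0358 for PKIA, -0.0223 for MAP3K7CL, and 12 other genes lost their call without turning. The unknown depth bears most on the 18 nuclear genes under 1 FPKM.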
